A study of Mus musculus with 135 samples.

Results

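Cortical gene expression was compared between sickle (SS) mice that went through repeated social defeat (RSD) while taking minocycline and SS mice that took minocycline without defeat. The libraries were taken by their labels: cerebral cortex, SS genotype, minocycline treatment, and stress exposure RSD or control. This gave 18 libraries of 135 in the series, 14 of SS + RSD + minocycline mice and 4 of SS + minocycline mice. 1 further library labelled SS + minocycline held the same counts as a library labelled AA + RSD + minocycline and was left out. The series measured RNA in the cortex and the hippocampus of male SS mice and of humanized control (AA) mice, each without treatment, with RSD, with minocycline or with both. All SS mice were Townes mice, in which human globin genes with the sickle mutation stand in place of the mouse genes, so by their labels both groups carried the disease. In RSD, a male aggressor was placed on consecutive days into an established cage of males, and the control cages had no aggressor. Minocycline was given in the drinking water from the day before the first defeat to the last one, and the mice went through behavioral tests before the brains were taken. Each library was 1 mouse. Ages were not in the labels, and the labels do not give the cage, so the p-values below treat cage mates as independent.

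Social defeat is a stressor that in mice is known to raise glucocorticoids, to activate microglia, the resident macrophages of the brain, and to draw blood monocytes to brain vessels. Minocycline is a tetracycline antibiotic that reaches the brain and dampens microglial activation. Sickle hemoglobin shortens the life of red blood cells, and the response of the marrow sends many immature red cells, which still hold RNA, into the blood and so into any tissue sample that contains vessels. The comparison asks what defeat changed in the cortex of sickle mice when the drug was already present.

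Reads on annotated genes ranged from 20881810 to 72737645 in the 4 control libraries and from 20037825 to 107713193 in the 14 RSD libraries (medians 37236916 and 33711634). No difference was found in this depth, in the shares of unmapped, multiply mapped or ambiguous reads, in the share of reads outside annotated genes or in the share on mitochondrial genes (lowest exact permutation p = 0.168, two-sided, over 3060 assignments). The share of reads outside annotated genes nevertheless split the libraries. It was between 3.85% and 6.09% in 6 of them (control mouse 9889 and RSD mice 7076, 5801, 9895, 5875 and 9890) and between 8.57% and 12.1% in the other 12. On the first principal component, which held 39.7% of the variance of 13646 genes, 5 of these 6 libraries were on the positive side against 1 of the 12 others. Mouse numbers in the labels fell into separate ranges, called number series here because the labels do not say what they mark. Series B (5797 to 5883 and 9810 to 9910) held 12 RSD and 2 control libraries, and series C (7076 to 7121) held 2 of each. Slc17a7, a vesicular glutamate transporter of excitatory neurons, lay between 742.5 and 1467 CPM in all 18. CPM are read counts scaled to a common library size after TMM normalization. The level of Slc17a7 alone does not tell cortex from hippocampus, so the tissue was taken from the labels. Alas2, the heme synthesis enzyme of immature red cells, went against 1 label: the library labelled SS + RSD + minocycline of mouse 7078 had 6.33 CPM, while the other 17 had 54.37 CPM or more. Scaled by library size alone, this library had 6.47 CPM. The median was 4.94 CPM in 34 AA cortex libraries and 96.8 CPM in 32 SS cortex libraries, this one among them. The AA libraries ran from 2.61 to 95.9 CPM, so the highest of them was near the SS median.

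**Figure D1:**
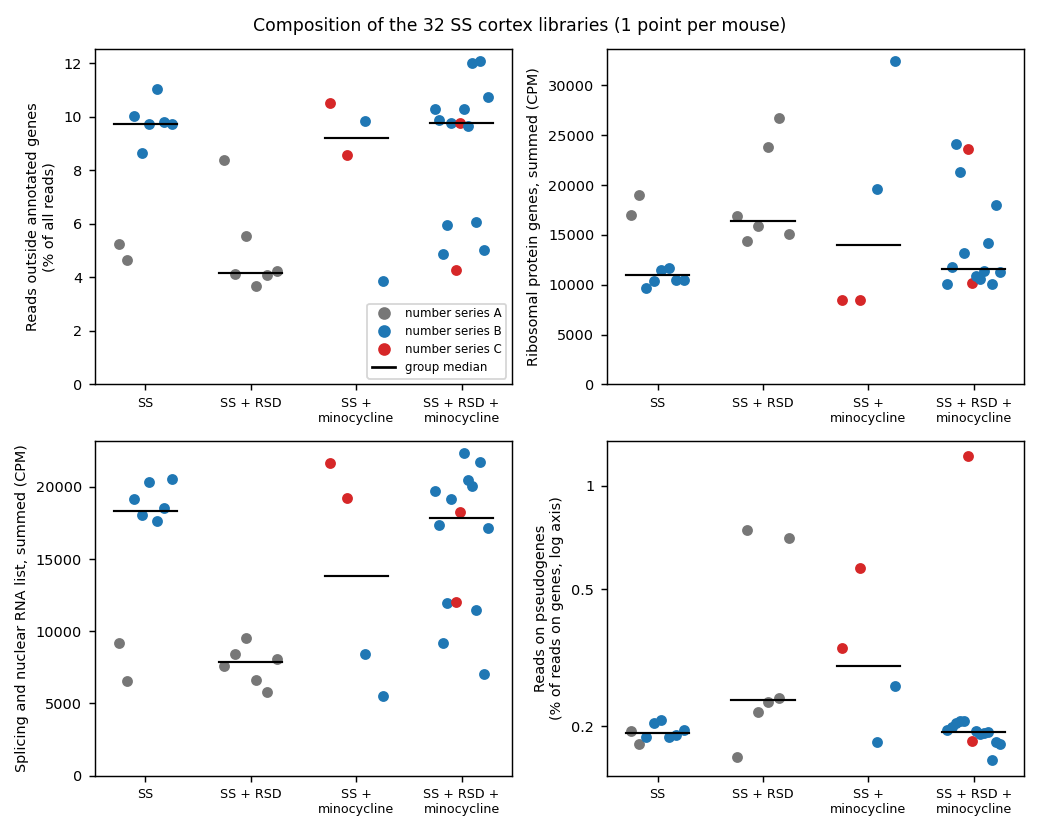
Composition of the 32 SS cortex libraries fitted together, 1 point per mouse, colored by number series, with the group median as a bar: reads outside annotated genes in percent, the summed CPM of ribosomal protein genes and of the splicing and nuclear RNA list, and reads on pseudogenes in percent on a log axis. Control mouse 9889 had 32420 CPM of ribosomal protein transcripts, and the 2 controls of series C had 8472 and 8499 CPM.

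RSD under minocycline changed no cortical gene past the threshold. With edgeR's quasi-likelihood test, 0 of 19906 genes had a Benjamini-Hochberg adjusted p under 0.05 (0%), and the lowest adjusted p was 0.979. At an unadjusted p under 0.05 there were 816 genes (4.1%), 413 higher and 403 lower in RSD mice. With DESeq2 the count was 0 as well, and 938 genes had an unadjusted p under 0.05. The precision was not low: among 13646 genes with a mean of at least 1 log2 CPM, the median standard error of the log2 fold change was 0.163, and the 95% interval lay within a 2-fold change either way for 92.8% and within a 1.5-fold change for 70.5%. These intervals are for the difference averaged over all 18 libraries, and they do not bound the differences within the number series described below. The count rested on mouse 7076: without this RSD library 558 genes passed (5 higher and 553 lower, 2.83% of 19694), of which 511 of the 553 lower ones were pseudogenes (92.4%, against 6.88% of the genes tested). Scaled by library size alone, these pseudogenes summed to 3090 and 1338 CPM in control mice 7121 and 7108. They summed to 560.9 and 280.3 CPM in control mice 9889 and 9888. Mouse 7076 had 7226 CPM, and the other RSD mice had 192.9 to 317.5 CPM. It also moved with the method, since limma voom with sample quality weights, which gave control mice 9889 and 9888 weights of 0.111 and 0.257, called 3567 genes.

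The genes of lowest p are described with their values, as not called. Scarf2, a scavenger receptor family member (chr16:17615056-17626317, GRCm39, plus strand), had 1.36, 2.28, 0.81 and 2.03 CPM in control mice 7108, 7121, 9888 and 9889. In the RSD mice it ran from 2.19 over a median of 2.64 to 4.07 CPM, and 13 of 14 lay above every control (log2 fold change 0.83, SE 0.20, p = 0.000264). Dancr, a long noncoding RNA, had 1.94, 2.13, 1.47 and 4.15 CPM in the same controls and 3.16, 4.08 and 7.47 CPM at the lowest, median and highest of the RSD mice. Here control mouse 9889 lay inside the RSD range and the other controls below it. For Timm21, a subunit of the machinery that imports proteins into mitochondria, the controls had 11.5, 9.56, 10.3 and 9.52 CPM and the RSD mice 10.7, 13.1 and 15.6 CPM (log2 fold change 0.34, SE 0.09, p = 0.000829). The groups overlapped in 2 RSD mice. Zfp119b, a zinc finger gene, was the named gene without any overlap on the high side, with 1.67 to 1.95 CPM in the controls and 2.002 to 3.661 CPM in the RSD mice (log2 fold change 0.61, SE 0.18, p = 0.00184).

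Lipg, endothelial lipase, had the widest difference of the named genes on the high side. The controls had 0.29, 0.41, 0.15 and 0.41 CPM, and the RSD mice 0.28, 1.47 and 5.25 CPM (log2 fold change 2.63, SE 0.78, p = 0.00207). Of the RSD mice, 13 lay above every control and 1 among them. Plk5, a polo-like kinase family member, had 5.60 to 12.5 CPM in controls and 8.39, 16.9 and 41.4 CPM in RSD mice, the highest being mouse 9813 (log2 fold change 0.87, SE 0.29). B4galt1, a galactosyltransferase of glycoprotein synthesis, and Tmem18, a nuclear membrane protein, were also among the genes of lowest p on this side. The noncoding genes 2810410L24Rik, Gm27032 and 2900052L18Rik and the gene 4933421O10Rik complete them. Their log2 fold changes ran from 0.22 (Tmem18) to 0.76 (2810410L24Rik). The ID of 4933421O10Rik was not found in the annotation used for positions, so its type and its overlap with other genes are not known here. Exons on the opposite strand cover 39.9% of the exonic bases of 2810410L24Rik, 31.2% of Gm27032, 28.4% of 2900052L18Rik and 25.9% of Dancr, and the strand setting of the counting is not given in the sources used here, so their counts may hold reads of the partner.

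On the low side, Hk1, hexokinase 1, which starts glycolysis in neurons (chr10:62104621-62215687, GRCm39, minus strand), had 492.0, 478.7, 455.2 and 559.9 CPM in control mice 7108, 7121, 9888 and 9889. The RSD mice had 337.4, 413.6 and 455.4 CPM, and 13 of 14 lay below every control (log2 fold change -0.29, SE 0.08, p = 0.000584). Uba1, the ubiquitin-activating enzyme that starts the ubiquitin cascade, had 401.2 to 463.3 CPM in controls and 321.2, 351.0 and 429.1 CPM in RSD mice (log2 fold change -0.25, SE 0.08, p = 0.00283). Ddb1, the adaptor of a cullin ubiquitin ligase, had 283.8 to 313.4 CPM and 223.9, 259.9 and 295.4 CPM (log2 fold change -0.21, SE 0.07, p = 0.00301). For both, 13 of 14 RSD mice lay below every control, and the exception was mouse 7076 for Uba1 and mouse 9895 for Ddb1. Kcna6, a voltage-gated potassium channel subunit, Gucy2g, a receptor guanylate cyclase, Zbtb46, a zinc finger transcription factor, Rrp12, a ribosome assembly factor, Klhl25, a cullin adaptor, and Nmnat2, the axonal enzyme of NAD synthesis, had log2 fold changes from -0.24 (Nmnat2) to -0.41 (Gucy2g). Exons on the opposite strand cover 39.7% of the exonic bases of Kcna6, so its counts may also hold reads of the partner. The pseudogene Gm5900 was the gene whose 14 RSD values all lay below the controls, at 0.73 to 2.29 CPM against 2.52 to 3.19 CPM (log2 fold change -0.73, SE 0.19), and it shares 63.2% of its exonic bases with another gene on its own strand. Complete separation of the groups was found for 4 genes on the high side (0.0201% of genes tested: Zfp119b, Muc1, Gm10766 and AV099323) and for 1 on the low side (0.00502%).

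**Figure D2:**
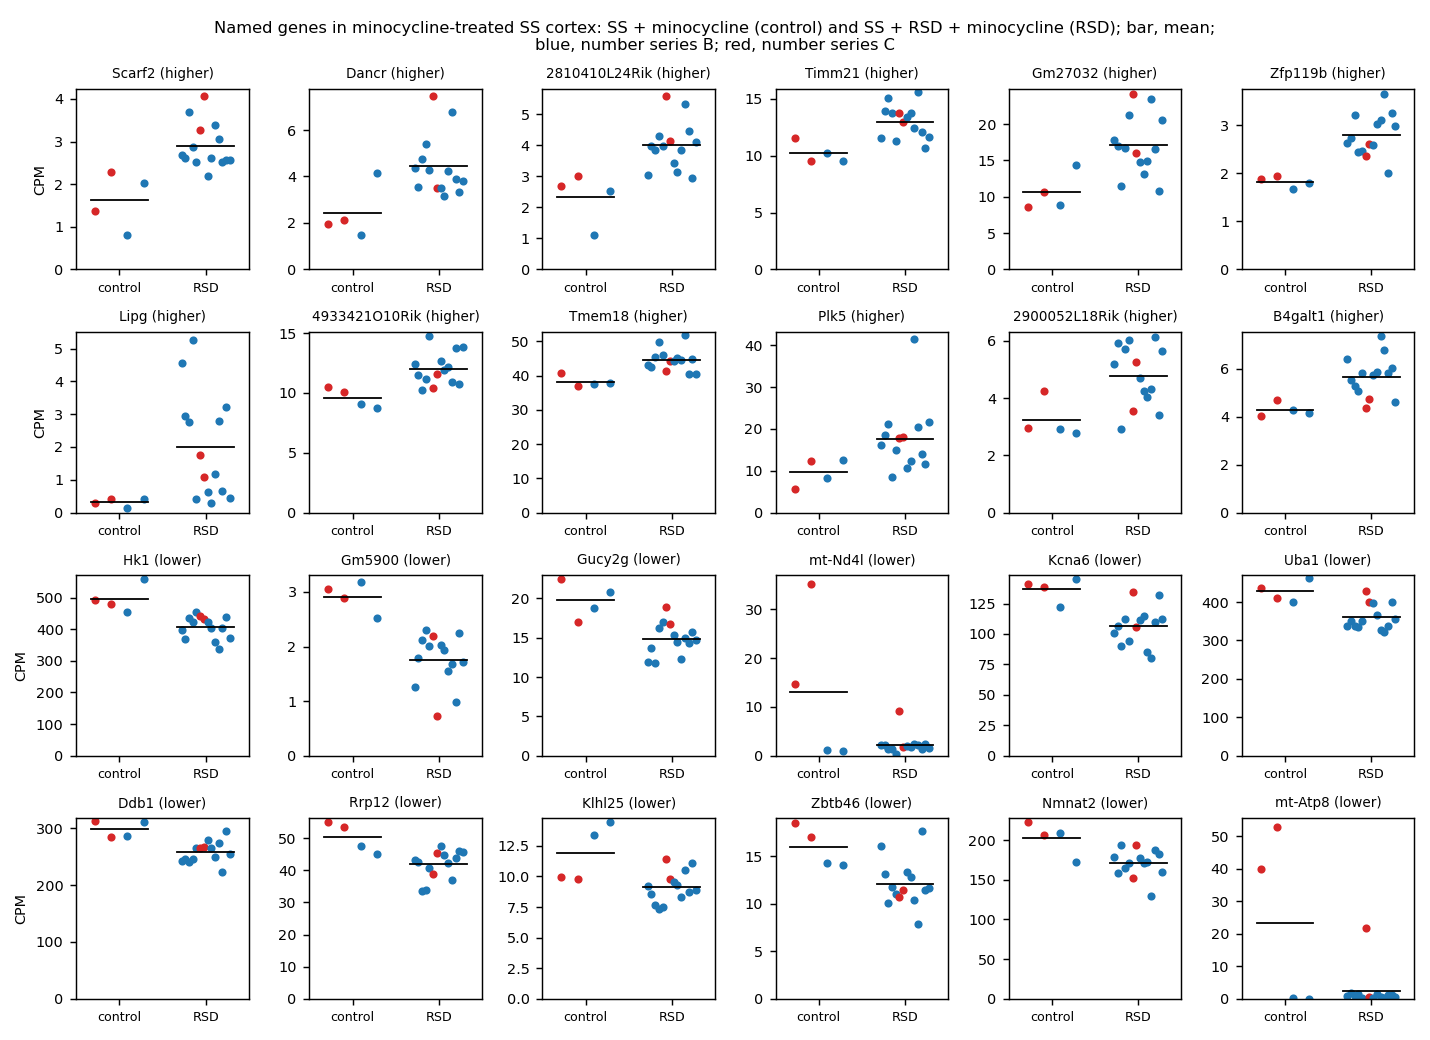
CPM of the 24 genes of lowest p, 12 higher and 12 lower in RSD mice, in the 4 control and 14 RSD libraries, 1 point per mouse, with the group mean as a bar and the number series as color; every y axis starts at 0. Scarf2, Hk1 and Uba1 show 13 of 14 RSD mice outside the control range, while mt-Atp8 and mt-Nd4l are set by 2 controls and 1 RSD mouse.

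The mitochondrial transcripts mt-Atp8 and mt-Nd4l stood apart from the others because a few libraries decided them. They encode a subunit of ATP synthase and a subunit of respiratory complex I, and each shares bases with its downstream neighbor on the same strand. The sequences are shown, from the GRCm39 genome, because reads in the shared bases, in capitals, fit more than 1 gene and are not counted for either: 43 of 204 bases (21.1%) of mt-Atp8, at chrM:7766-7969, lie in mt-Atp6, and 7 of 297 bases (2.36%) of mt-Nd4l, at chrM:9877-10173, lie in mt-Nd4.
mt-Atp8: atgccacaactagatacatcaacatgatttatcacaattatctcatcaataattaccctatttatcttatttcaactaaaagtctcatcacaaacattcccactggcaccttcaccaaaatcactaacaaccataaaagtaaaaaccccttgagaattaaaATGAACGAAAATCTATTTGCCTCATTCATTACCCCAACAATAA
mt-Nd4l: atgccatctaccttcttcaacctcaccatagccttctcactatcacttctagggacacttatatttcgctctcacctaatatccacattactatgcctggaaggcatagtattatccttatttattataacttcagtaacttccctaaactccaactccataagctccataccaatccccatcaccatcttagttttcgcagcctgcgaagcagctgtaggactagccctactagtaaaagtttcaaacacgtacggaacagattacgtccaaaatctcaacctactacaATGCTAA
For mt-Atp8 the controls had 40.02, 52.92, 0.10 and 0.04 CPM in mice 7108, 7121, 9888 and 9889. The RSD mice had 0.19, 0.77 and 21.9 CPM, the highest being mouse 7076 (log2 fold change -3.35, SE 1.09). In mt-Nd4l the same controls had 14.7, 35.3, 1.11 and 0.85 CPM and the RSD mice 0.33, 1.91 and 9.26 CPM (log2 fold change -2.52, SE 0.70). Of the 18 libraries, those with many reads of these transcripts were all of series C, and within series B the direction was the opposite, with log2 fold changes of 3.51 for mt-Atp8 and 0.78 for mt-Nd4l. Among all 32 SS cortex libraries, 5 (7108, 7121, 7076 and SS + RSD mice 5391 and 9621) had 720 or more reads of mt-Atp8, and all others had 84 or fewer. The same 5 had 0.3368% to 1.22% of their reads on genes on pseudogenes, against 0.1589% to 0.2609% in the others. In the hippocampus of mice 7108, 7121 and 7076, mt-Atp8 stood at 55.4, 36.9 and 38.5 CPM, and in that of SS + RSD mice 5391 and 9621 at 60.8 and 56.7 CPM. SS mice 9822 and 9848, with 30 and 43 reads of it in the cortex, were as high in the hippocampus, at 51.7 and 57.4 CPM, so the libraries with many reads were not the same mice in both tissues.

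Genes that respond to neuronal activity and to stress hormones did not pass the test. The brains were taken days after the last defeat, once the behavioral tests were over. The values describe that later time and not the response during defeat. Of 27 immediate early genes, which neurons switch on within minutes of activity, 0 passed and 6 had a log2 fold change above 0 (22.2%, against 46.7% of all genes tested), with a median of -0.15 against -0.02 for all genes. Arc, which acts at active synapses, had 283.3, 163.8, 275.2 and 190.3 CPM in the controls and 45.3, 130.5 and 269.4 CPM in the RSD mice (log2 fold change -0.69, SE 0.38). Arc lay below every control in 10 of 14 RSD mice. Nr4a3, a nuclear receptor of the same list, had a log2 fold change of -0.52 (SE 0.25). Among 24 glucocorticoid targets, 0 passed, 19 were above 0 (79.2%) and the median was 0.15. Fkbp5, the co-chaperone that restrains the glucocorticoid receptor, had 25.92, 26.01, 37.74 and 34.6 CPM in the controls and 22.7, 41.3 and 75.3 CPM in the RSD mice, so the RSD mice covered the whole control range and more. Mertk, a receptor for engulfing dead cells, and Plin4, a lipid droplet protein, had log2 fold changes of 0.40 (SE 0.17) and 1.46 (SE 0.77). For Plin4 the control mouse 9888, at 20.03 CPM, was above most RSD mice, whose median was 10.6 CPM.

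Inflammatory genes gave a mixed picture. Of 24 homeostatic microglia genes 0 passed, 11 were above 0 (45.8%) and the median log2 fold change was -0.01. Cd53, a leukocyte tetraspanin of microglia, had 4.24 to 5.17 CPM in the controls and 4.13, 5.50 and 12.3 CPM in the RSD mice (log2 fold change 0.49, SE 0.25). Tyrobp, the signaling adaptor of microglial receptors, had -0.36 (SE 0.31). Of 29 tested cytokine, chemokine and adhesion genes, 0 passed and 15 were above 0 (median 0.02). The interferon-stimulated genes, which respond to viral RNA and to interferon, were above 0 in 22 of 27 (81.5%, median 0.31), again with 0 called. Their spread came from single mice: Ifi44 had 0 to 0.77 CPM in the controls and 0.23, 0.91 and 9.19 CPM in the RSD mice, and Oasl2 had 2.52 to 3.19 CPM and 2.31, 4.05 and 17.5 CPM. Mouse 5801 was the highest for both. Il1r1, the interleukin-1 receptor of brain endothelium, had 3.05 to 4.25 CPM in the controls and 3.13, 5.10 and 10.6 CPM in the RSD mice, 11 of which lay above every control. Astrocyte genes had a median of 0.12 with 14 of 24 above 0, and Osmr, the oncostatin M receptor that reactive astrocytes carry, a log2 fold change of 0.54 (SE 0.22). The 29 genes of the blood-brain barrier endothelium had a median of -0.01 with 13 above 0, and in all of them the 95% interval stayed within a 2-fold change. In bulk tissue, fewer cells of a type and less RNA per cell cannot be told apart.

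Markers of deep brain tissue were above 0 in most members of the pooled comparison, and none passed. Of 19 striatal genes, 18 were above 0 (94.7%, median 1.35 on the log2 scale). Within number series C, described below, 5 of 17 were above 0 (median -0.44). Their summed level ran from 287.4 to 497.6 CPM in the controls and from 289.3 over 517.9 to 1713 CPM in the RSD mice, with mice 9813 and 9890 at the top. Penk, the enkephalin precursor, had 19.4 to 67.5 CPM in the controls and 30.3, 82.3 and 369.6 CPM in the RSD mice (log2 fold change 1.41, SE 0.69). Drd2, the D2 dopamine receptor, had 0.66 to 6.77 CPM and 0.65, 7.10 and 41.4 CPM, mouse 9813 being the highest for both genes. Isl1, a transcription factor of striatal neurons, was listed at 0 in control mice 7108 and 9888, and at up to 8.18 CPM in the RSD mice. Some other lists share members or cell types with the striatum. Interneuron genes (15 of 20 above 0, median 0.20) include Tac1 and Calb2, which had log2 fold changes of 1.03 (SE 0.57) and 1.11 (SE 0.69). Serotonin and dopamine receptors (14 of 17 above 0, median 0.24) include Drd2. The amount of striatal tissue in each sample was not measured, and its part in these values was not tested. Genes of the choroid plexus had a median of 0.07, with Ttr, the thyroxine carrier made there, between 0.96 and 87.3 CPM in the controls and 1.22 and 15.1 CPM in the RSD mice.

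Myelin and red cell genes were lower in most members of the pooled comparison. Of 23 genes of myelin and oligodendrocytes, 2 were above 0 (8.7%, median -0.19) and 0 passed. Within number series B, described below, 3 of 23 were above 0 (13%, median -0.38). Within series C, 11 of 23 were above 0 (47.8%, median -0.04). Cnp, a myelin enzyme, had 330.4, 273.7, 443.4 and 415.3 CPM in the controls and 175.1, 282.7 and 409.2 CPM in the RSD mice (log2 fold change -0.36, SE 0.19), and Trf, the transferrin that oligodendrocytes make, had a log2 fold change of -0.47 (SE 0.21) with 10 of 14 RSD mice below every control. Of 24 red blood cell genes, 4 were above 0 (16.7%, median -0.17). Alas2 had 63.5, 67.6, 149.1 and 190.3 CPM in the controls and 6.33, 71.1 and 130.4 CPM in the RSD mice (log2 fold change -0.64, SE 0.34), the lowest being mouse 7078. The 2 controls of series B held the 2 highest Alas2 values of all 18 libraries. Slc4a1, the band 3 anion exchanger of red cells, followed with 6.28 to 18.1 CPM in the controls and 0.50, 7.24 and 15.7 CPM in the RSD mice (log2 fold change -0.77, SE 0.40).

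Synaptic genes had pooled medians close to 0. The 36 glutamate receptors and postsynaptic scaffolds had a median of 0.01 with 19 above 0, and the 35 voltage-gated channels 0.01 with 18 above 0. In every member of both lists the 95% interval of the fold change stayed within a 2-fold change. Both lists had opposite signs in the number series described below. The glutamate list had a median of 0.31 in series B, with 9 of 36 called higher (25%, against 10.2% of all genes), and of -0.41 in series C, with 7 of 36 above 0 and 0 called. The channels had 0.36 in series B, with 31 of 35 above 0 and 6 called higher, and -0.52 in series C, with 5 of 35 above 0 and 0 called. Sphingolipid enzymes and receptors, which make and sense ceramide and its products, had a median of -0.04 with 24 of 52 above 0. Slc1a4, a serine transporter listed there, had 75.9, 74.5, 85.4 and 79.5 CPM in the controls and 60.2, 69.2 and 81.4 CPM in the RSD mice (log2 fold change -0.18, SE 0.08), 11 of 14 below every control. Cholesterol synthesis was below 0 in 18 of 21 genes (median -0.14). Above 0 were 6 of the 21 within series B (median -0.28) and 13 of 21 within series C (median 0.11). Hmgcs1, an early enzyme of the pathway, had a log2 fold change of -0.26 (SE 0.11) with 13 of 14 RSD mice below every control. It did not pass after adjustment. Of the 7 sirtuins, the NAD-dependent deacylases, 4 were above 0, with Sirt7 at 0.29 (SE 0.17) and Sirt5 at -0.18 (SE 0.08).

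Large housekeeping groups leaned one way in the pooled comparison. Cytosolic ribosomal proteins were below 0 in 82 of 92 genes (median -0.24), nuclear-encoded subunits of respiratory complex I in 34 of 37 (median -0.21), mitochondrial ribosomal proteins in 70 of 77 (median -0.14) and proteasome subunits in 37 of 39 (median -0.18). Nuclear-retained RNAs and splicing regulators were above 0 in 36 of 37 (median 0.16). None of these genes passed. Per library the ribosomal proteins summed to 8472, 8499, 19570 and 32420 CPM in control mice 7108, 7121, 9888 and 9889 and to 10030, 11580 and 24090 CPM at the lowest, median and highest of the RSD mice. The controls of series C thus lay below every RSD mouse and 1 control of series B above every RSD mouse. Single genes showed the same order: Rps14, a protein of the small ribosomal subunit, had 125.0, 120.5, 312.9 and 608.0 CPM in these controls, with all 14 RSD mice between 143.7 and 371.1 CPM.

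Splitting the mice by number series turned these groups in opposite directions. Within series B (12 RSD against 2 controls), 4420 of 19253 genes passed (23%), 1969 higher (10.2%) and 2451 lower (12.7%). That fit also held the 6 SS mice of series B. In series B, 62 of 93 ribosomal protein genes were called lower and 2 higher (median -0.94). Called lower were also 29 of 37 complex I subunits (median -0.84), 48 of 77 mitochondrial ribosomal proteins (median -0.67) and 26 of 39 proteasome subunits (median -0.63). Called or not, 9 of the 93 ribosomal protein genes and 0 genes of these other lists were above 0. Of 37 nuclear-retained RNAs and splicing regulators, 27 were called higher (median 0.67). Within series C (2 RSD against 2 controls, fitted alone), 0 of 19827 genes passed by the same test, with 1366 at an unadjusted p under 0.05. This fit held far fewer libraries, so the numbers of genes called in the 2 series cannot be set side by side. The medians in series C had the other sign, 1.07 for ribosomal proteins, 1.09 for complex I, 0.74 for mitochondrial ribosomal proteins, 0.63 for proteasome subunits and -0.28 for the splicing list. Of 4382 genes called in series B and tested in series C, 5.59% had the same sign in both, against 23.2% of all 18491 genes tested in both. Of 854 genes with an unadjusted p under 0.05 in both, 851 had opposite signs, and the other 3, all higher in RSD mice of both series, were AA465934, Pabpn1, a nuclear poly(A) binding protein, and Lipg. The difference between the series was tested directly, as a test chosen after the data had been seen: 4345 of 18919 genes passed (23%), 1898 with the more positive RSD effect in series B and 2447 in series C. Series C holds only 2 RSD mice, so leaving out either leaves 1, which is assumed to vary like the mice of the other groups. With mouse 7078 as the one left, whose Alas2 goes against its label, 0 genes passed, with 3955 at an unadjusted p under 0.05. With mouse 7076 as the one left, 7265 passed. These counts describe single mice.

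**Figure D3:**
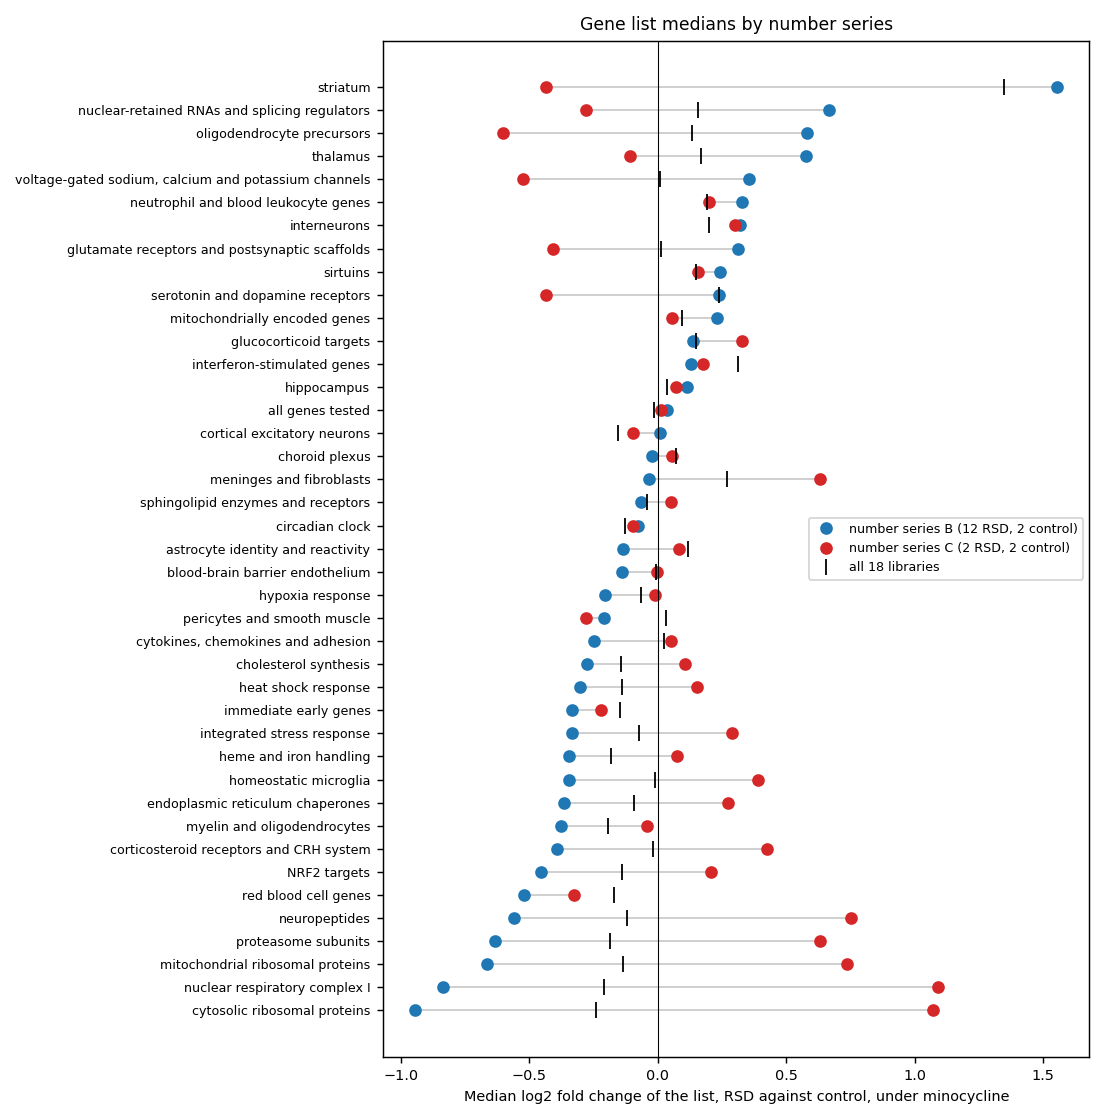
Median log2 fold change of each gene list, SS + RSD + minocycline against SS + minocycline, within number series B (blue), within number series C (red) and over all 18 libraries (black tick). Ribosomal proteins lie at -0.94 in series B and at 1.07 in series C, with the pooled median at -0.24.

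Values of single libraries on each side of this split are given here, and what set the split was not tested. Control mouse 9889 had 3.85% of reads outside genes and 5486 CPM of the splicing list, control mouse 9888 had 9.84% and 8426 CPM, and the series C controls 7108 and 7121 had 10.5% and 8.57% with 21680 and 19260 CPM. On the RSD side of series C, mouse 7076 had 4.27% with 12000 CPM and mouse 7078 had 9.77% with 18290 CPM. Mouse 7076 also had the highest share of unmapped reads of the 18 libraries, 36.2%, and the highest share on pseudogenes, 1.22%. With the share of reads outside genes as a term in the pooled model, 0 genes passed and 1541 had an unadjusted p under 0.05. With the same term in the test of the difference between the series, 3332 of 18919 genes passed (17.6%). Several lists had the same sign in both series: immediate early genes had medians of -0.33 and -0.22, interferon-stimulated genes 0.13 and 0.18, glucocorticoid targets 0.14 and 0.33, and interneuron genes 0.32 and 0.30 in series B and C. Of all genes tested, 52.1% and 50.8% were above 0 in series B and C. The shares were 29.6% and 37% for immediate early genes and 63% and 66.7% for interferon-stimulated genes. They were 54.2% and 66.7% for glucocorticoid targets, near that of all genes in series B, and 70% in both series for interneuron genes. Red blood cell genes had medians of -0.52 and -0.33, but in series C this includes mouse 7078, and the other RSD mouse, 7076, had 69.5 CPM of Alas2, above both controls (63.5 and 67.6 CPM). The striatal list had opposite signs, at 1.56 and -0.44. Homeostatic microglia genes had -0.35 and 0.39, and neuropeptides -0.56 and 0.75. Of the 24 genes of lowest p, 21 had the same sign in both series, the others being mt-Nd4l, mt-Atp8 and Klhl25. Scarf2, for example, had log2 fold changes of 0.89 and 1.03, Lipg 2.81 and 2.01, and Hk1 -0.39 and -0.14. These genes were chosen for a low pooled p, which itself favors genes that differ alike in all libraries.

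Without mouse 7076, 13 of these 24 genes passed the test: Scarf2, Dancr, 2810410L24Rik and Timm21 as higher, and Hk1, Gm5900, Gucy2g, mt-Nd4l, Kcna6, Uba1, Ddb1, Klhl25 and mt-Atp8 as lower. Zbp1, a sensor of unusual nucleic acids, completes the 5 genes called higher, from 7 reads in all 4 controls together and 201 in the 14 RSD libraries. Hk1 then had a log2 fold change of -0.31 (edgeR adjusted p = 0.020) and Scarf2 one of 0.80 (adjusted p = 0.0241). Removing any other single library of the 18 gave 0 calls. Over all genes, 558 of 19694 passed without mouse 7076 (2.83%), and 511 of the 553 lower ones were pseudogenes. The adjusted p-values of Hk1 and Scarf2 rest on the ranks of all genes, these pseudogenes among them. The 24 genes were picked for a low p in libraries that include these, so their larger share of calls is no separate support.

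RSD was also given without the drug, to 6 SS + RSD mice beside 8 SS mice, which allows the effect of defeat to be compared with and without minocycline. The interaction passed for 80 of 19906 genes (0.402%), 41 more positive and 39 more negative under minocycline. Rsrp1, an arginine- and serine-rich nuclear protein, had medians of 407.3 CPM in SS and 175.6 CPM in SS + RSD mice, against 288.4 and 419.9 CPM with the drug, an interaction of 1.58 on the log2 scale. Csf2ra, a chain of the GM-CSF receptor, had 32.8 and 14.6 CPM without the drug and 18.4 and 31.6 CPM with it (interaction 1.56). Vcp, a segregase that feeds the proteasome, had 272.2 and 354.8 CPM without and 344.4 and 284.5 CPM with it (interaction -0.62). For each of these 3 genes the SS mice without either exposure were near the SS + RSD + minocycline mice. All 6 SS + RSD libraries were of number series A, and their median share of reads outside genes was 4.18%, against 9.75% in SS, 9.2% in SS + minocycline and 9.76% in SS + RSD + minocycline mice. Series A held only 2 other libraries, both SS, so the exposure and the number series largely coincided, and their parts in the interaction cannot be told apart without relying on these 2. With the number series, the share or both as terms, 0 genes passed (669, 2128 and 1154 at an unadjusted p under 0.05, edgeR). Without mouse 7078, 0 genes passed as well (4418 at an unadjusted p under 0.05). The edgeR count was also 0 without SS + RSD mouse 5391 or 9621 (4057 and 4628 at an unadjusted p under 0.05), 2 without control mouse 7121 and 637 without control mouse 7108, and it was 189, 29 and 32 without SS + RSD mice 5400, 9615 and 9616.

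RSD without the drug called 511 genes (2.57%), 56 higher and 455 lower, from libraries that the minocycline comparison does not share. Of the 455 lower genes, 423 had a log2 fold change above 0 under minocycline, with a median of 0.27 against -1.03 without the drug. Among all genes tested, 46.7% were above 0 under minocycline. Of the 56 higher genes, 45 were below 0 under minocycline (median -0.13 against 0.62). With the number series and the share of reads outside genes as terms, these counts were 439 of 455 and 44 of 56. None of the 511 passed under minocycline. Of the 14 RSD libraries with the drug, 12 were of series B, and the signs of the 511 genes were not counted within each series. The 511 calls rest on the same SS + RSD libraries of series A.

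**Figure D4:**
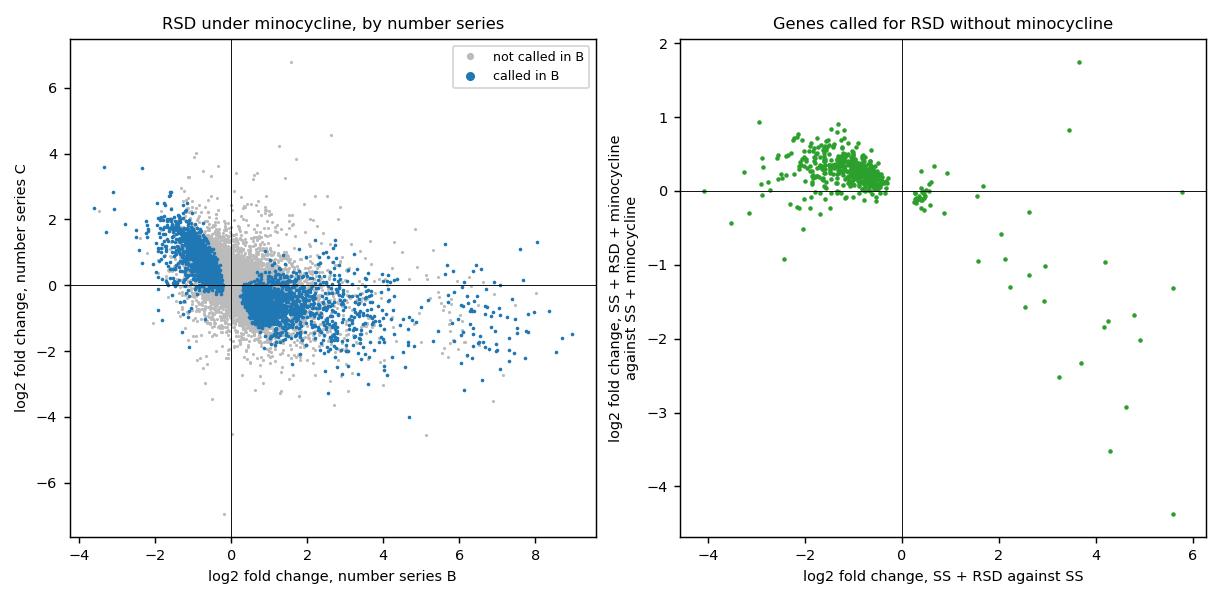
Left, log2 fold change of every gene for RSD under minocycline in number series B (x) and C (y), with the genes called in series B in blue; right, the 511 genes called for SS + RSD against SS (x) with their log2 fold change under minocycline (y). On the left 5.59% of the blue genes share a sign, against 23.2% of all genes tested in both. On the right 423 of 455 genes that were lower without the drug lie above 0, against 46.7% of all genes tested.

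The hippocampus of the same SS mice gave 0 of 20701 genes for the same comparison (0%, 998 at an unadjusted p under 0.05, edgeR). The genes of lowest p in the cortex had the same sign there except Scarf2 (-0.02) and Zbtb46 (0.04). Gm5900 had a log2 fold change of -0.54, Timm21 0.24, Lipg 1.24, Hk1 -0.15 and Uba1 -0.18 in the hippocampus, each nearer to 0 than in the cortex. Striatal genes, at a median of 1.35 in the cortex, had a median of 0.001 with 10 of 19 above 0, while ribosomal proteins had -0.31 with 8 of 92 above 0, and red blood cell genes -0.38 with 4 of 24. The brains are shared between both tissues, so the hippocampus is a second tissue and not a second set of mice.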

How the data were processed

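Directional libraries of polyadenylated RNA of the mouse cortex and hippocampus were sequenced by the authors as single reads and aligned to GRCm39 with STAR. The values deposited by the authors are whole-number read counts per GENCODE gene for each library, without normalization. The 4 summary lines of each table (unmapped, multiply mapped, outside genes, ambiguous) stayed out of library sizes and tests, and 3 columns were unused because no library of known group matched them. The strand setting of the counts, the GENCODE release and the STAR version are not given in the sources used here. Positions are from GENCODE vM39 on GRCm39, where 98.8% of 55416 gene IDs were found and 56.6% with the same version.

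Counts of 32 SS cortex libraries were fitted with edgeR 4.0.16 (R 4.3.3): filterByExpr by group (minimum count 10, minimum total 15), TMM, 1 group term, the quasi-likelihood test and Benjamini-Hochberg adjustment over all genes tested, with calls at an adjusted p under 0.05. Library measures were compared with an exact permutation test over 3060 assignments. CPM in the text are TMM-scaled. Reads on genes per library are given with the groups, and the spread between mice, not the depth, sets most standard errors. Named genes are the 12 of largest fold change called in each direction with a mean of at least 1 log2 CPM, filled by lowest p where fewer passed, and up to 4 members of lowest p per gene list; some of these are not reported here, and other names were chosen after their values were seen. The members and lists were chosen with earlier results of these data known. Alternatives included DESeq2 1.42.0, limma 3.58.1 (voom with sample weights), other normalization and filters, added terms and omitted libraries. The procedure was tested on simulated data.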

Additional observations from a re-analysis of the deposited data

Results flagged for a closer look

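Of 32 groups of values tested for a sample far from the others, 1 stood out, where chance gives about 1 in 20: 2900052L18Rik in the SS + minocycline mice, where mouse 7121 had 4.262 CPM and the gap to the nearest other control was 0.868 of the range.

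The effect of RSD differed with and without minocycline for 80 genes, tested as an interaction. On the log2 scale it was negative for mt-Atp8 (-8.06), Gm4076 (-6.94), mt-Nd4l (-5.75), Gm28439 (-4.11), Vcp (-0.62), Uba1 (-0.49), Wdr1 (-0.47), Ap2b1 (-0.46), Hk1 (-0.45) and Ddb1 (-0.41). The values of mt-Atp8, mt-Nd4l and the pseudogenes Gm4076 and Gm28439 are set by the 5 libraries with many reads of mt-Atp8. It was positive for Adam33 (2.92), Mir5125 (2.76), Flt3l (2.47), Gm47135 (2.03), A830036E02Rik (1.94), E230016M11Rik (1.87), Dffb (1.82), Pabpn1 (1.78), Bmp1 (1.75), P3h3 (1.62), Rsrp1 (1.58), Csf2ra (1.56), 2900052L18Rik (1.199), Gm27032 (1.18), 2810410L24Rik (1.14), 4933421O10Rik (0.65) and Timm21 (0.60). All 6 SS + RSD mice are of number series A, with 2 SS mice beside them, and with the number series as a term 0 genes passed.

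The effect of RSD under minocycline differed between number series B and C for 4345 genes, tested as a difference of the 2 effects. With the share of reads outside genes as a term, it differed for 3332 genes. Without mouse 7076 the count was 0, but series C then holds mouse 7078 as its only RSD mouse, and the Alas2 of that library goes against its label.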

How the results depend on the processing

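For RSD under minocycline, 0 genes passed with edgeR under RLE size factors, the likelihood-ratio test, added terms for number series and share of reads outside genes, the 2 groups alone, the identical library kept, series C alone and each control left out. Counts that moved were 2 without a filter on low counts, 3567 with limma voom and sample weights, 4420 in series B alone, 283 in libraries with over 7% of reads outside genes (chosen after seeing the data), 816 at an unadjusted p, and 0 to 558 when 1 RSD library was left out, the 558 without mouse 7076. Libraries with over 7% of reads outside genes do not include mouse 7076. Of their 283 genes, 253 were lower, 223 of these were pseudogenes, and 214 of the 253 were also called lower without mouse 7076. The hippocampus count remained 0 without each control. The interaction gave 229 with RLE size factors, 838 with the likelihood-ratio test, 5591 with voom, 1240 with DESeq2 and 0 with number series, with the share outside genes or with both as terms. Leaving out 1 control gave 2 to 637, 1 SS + RSD library 0 to 189, and mouse 7078 0. The difference between the series gave 3332 with the share outside genes as a term. The difference between the series was 0 without mouse 7076 and 7265 without mouse 7078, each with 1 RSD mouse left in series C, assumed to vary like the other groups. The cause of these moves was not tested.

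Values that changed sign within 1 series were mt-Nd4l (0.78) and mt-Atp8 (3.51) in series B, Klhl25 (0.11) in series C, and, RSD minus control in percentage points in series B, the multiply mapped share (-0.4867) and the ambiguous share (-0.03675). Of 744 values of the named genes under the alternatives, 692 kept direction and call, 49 gained the call and 3 reversed. With 1 control left out, RSD minus control ranged from -5735000 to 11550000 reads on genes and, in percentage points, from -7.972 to -2.258 unmapped, 0.1446 to 1.046 multiply mapped, -1.011 to 1.207 outside genes, -0.04221 to 0.09179 ambiguous and 0.9176 to 1.089 mitochondrial, so the reads on genes and the shares outside genes and ambiguous changed sign there too. With 4 controls, 1 mouse can set a group mean, and depth limits thinly covered genes such as Isl1 and Zbp1. No paired analysis was possible because each mouse gave 1 cortex library.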

Other observations

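AA465934, a noncoding gene, Pabpn1 and Lipg were higher in RSD mice of both number series at an unadjusted p under 0.05. AA465934 had 2.238 to 12.33 CPM, scaled by library size alone, in the controls and 2.921, 15.13 and 37.28 CPM at the lowest, median and highest of the RSD mice. Pabpn1 had 27.7, 30.9, 17.96 and 14.04 CPM in control mice 7108, 7121, 9888 and 9889 and 13.3, 38.6 and 46.7 CPM in the RSD mice, 10 of which lay above every control and 1 below. Without a filter on low counts, Gm10800 and the pseudogene Gm17081 were called lower, from 183 and 48 reads in the controls and 4 and 1 in the RSD mice. Gm10800 ran from 0 to 8.764 CPM among the controls.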
